A study of Mus musculus with 6 samples.

Results

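The whole course of in vitro endoderm differentiation was described from 4 of the 6 RNA-seq samples of the series, the 2 samples of undifferentiated cells (d0) and the 2 samples of the endoderm reached on day 5 (d5FS). All samples came from the DKI line, a mouse embryonic stem cell (ESC) line with fluorescent reporters at 2 endoderm transcription factor genes. One Foxa2 allele carries Venus and both Sox17 alleles carry Cherry, and the controls carry these reporters too. The d0 cells were grown on feeder fibroblasts, depleted of them, passaged on gelatine and sorted as negative for Foxa2-Venus and Sox17-Cherry on day 0. Their medium held fetal calf serum and the cytokine LIF. The d5FS cells had been seeded in an endoderm differentiation medium with 1 ng/ml Wnt3a and 10 ng/ml Activin A. Its listed parts include insulin, transferrin and selenium, but neither LIF nor fetal calf serum. These cells were sorted on day 5 as positive for both reporters. The medium thus differed between the groups along with the stage. The 2 samples of day 3 cells (d3F, positive for Foxa2-Venus and negative for Sox17-Cherry) entered the same fit, and their values are given beside the others where they show the course. The members were all genes of the tables, compared between d0 and d5FS. The sort itself selects for Foxa2 and Sox17, so the rise of these genes is no result.

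Endoderm is the germ layer that forms the lining of the gut and the epithelium of liver, pancreas and lung. In the mouse embryo an extraembryonic layer, the visceral endoderm, covers the embryo before definitive endoderm intercalates into it, and it takes up maternal nutrients and secretes plasma proteins as the liver does later. ESCs divide rapidly, with high rates of DNA replication and ribosome production, and they express many genes that are otherwise typical of germ cells.

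Total expected counts ranged from 16457728.93 to 22258890.05 in the d0 and d5FS samples, and 14539 of 24054 genes passed the filter on low counts. Replicates differed by more than sampling noise in each group, and the 2 d0 samples differed most, with a standard deviation of 0.885 of their log2 difference across genes against 0.761 in d5FS. Replicates are separate samples of 1 cell line, so p-values measure the spread between these samples. Levels are given as coding TPM, that is deposited TPM rescaled to a common total over the genes with a protein-coding RefSeq transcript, and values within a group are listed as replicate 1 and then replicate 2. The protein-coding share of the deposited TPM varied between 23.1% and 45.7% per sample. The study lists an mRNA library and a total RNA library for each population without the replicate number, so library kind and replicate cannot be told apart. Of the markers listed for the labelled cell types, 17 of 20 pluripotency genes were lower in d5FS. Of 17 tested definitive endoderm genes other than Foxa2 and Sox17, 15 were higher. The median log2 difference of the pluripotency genes from d0 to d5FS was -2.58 between the replicate 1 samples and -3.82 between those of replicate 2. These lists were chosen with earlier results of these data known, so the counts are a description and no check of identity. Visceral endoderm genes, given further on, were higher too.

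Between d0 and d5FS, 3313 of 14539 tested genes were called, that is 22.8% with a Benjamini-Hochberg adjusted p under 0.05 in edgeR's quasi-likelihood test and an absolute log2 fold change above 1. Of all tested genes, 12.4% were called higher in d5FS (1800 genes) and 10.4% were called lower (1513 genes). The median log2 fold change over all tested genes was 0.02, against 0.20 on the coding TPM scale and -0.34 on that of the deposited TPM. Against this background, lists of genes grouped by function moved in opposite directions. Clotting factors, lipoproteins, digestive enzymes, lysosomal hydrolases and the contractile and keratin cytoskeleton were gained. Ribosome biogenesis, DNA replication, folate and threonine metabolism and germ cell genes were lost. Genes of synapses and the neuronal cytoskeleton were called in both directions, more often lower. The count rests on few libraries. Without d5FS replicate 1, 1047 genes were called, without d5FS replicate 2, 1533 and without d0 replicate 2, 1939, where the lone sample left in a group was assumed to vary like the other groups. Of 229 called genes named in the text, 98 were not called without d5FS replicate 1, 72 without d5FS replicate 2, 54 without d0 replicate 2 and 28 without d0 replicate 1, and none of them changed sign in any alternative fit.

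**Figure D1:**
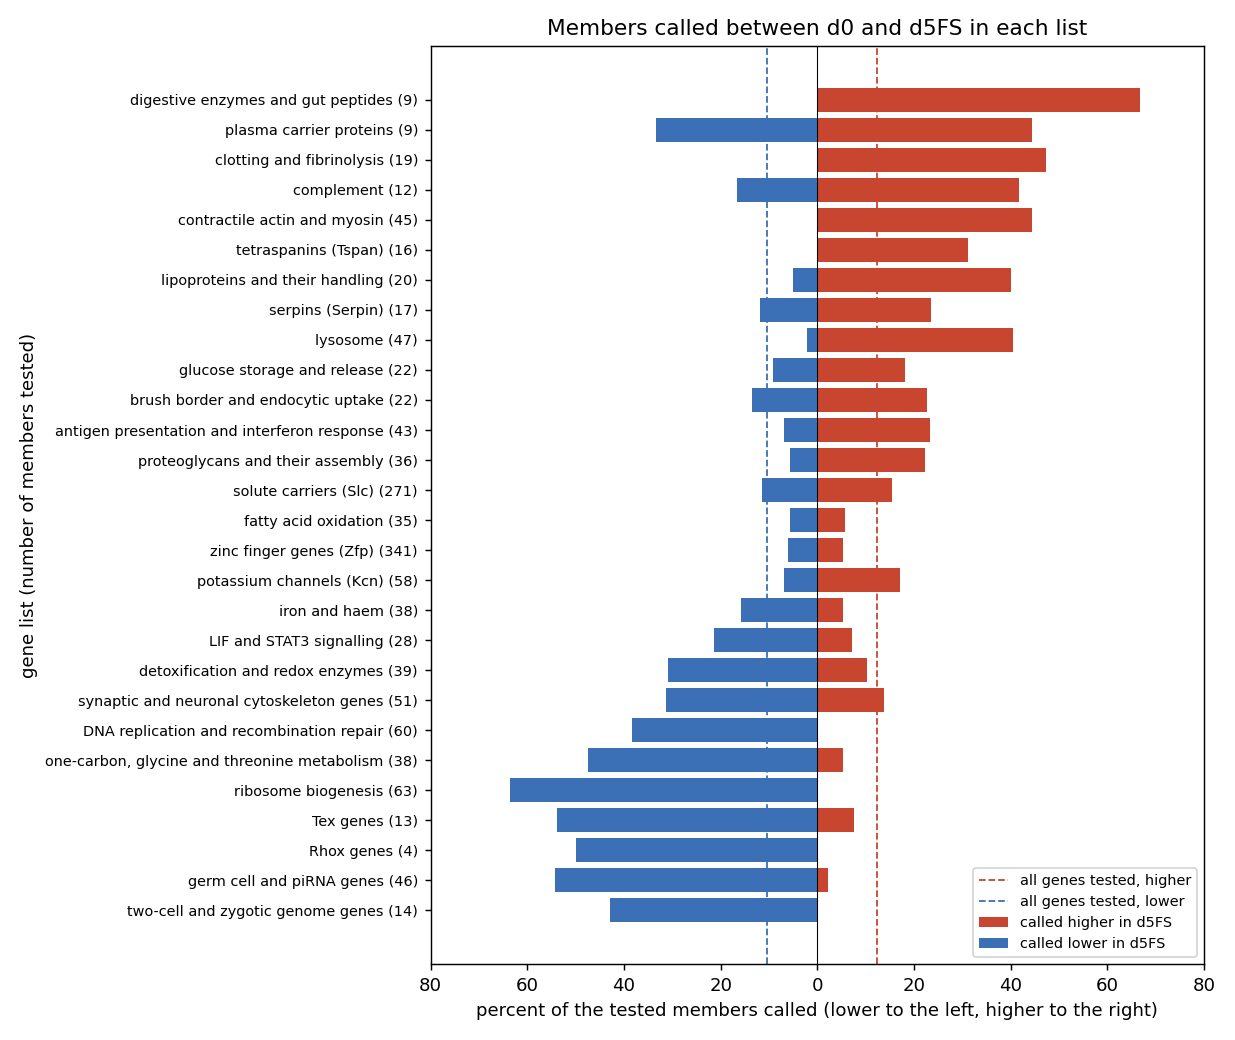
Percent of the tested members of 28 gene lists called between d0 and d5FS, higher in d5FS to the right in red and lower to the left in blue, ordered by the median log2 fold change of the list. The dashed lines mark all tested genes, 12.4% higher and 10.4% lower. Ribosome biogenesis extends farthest to the left at 63.5%, and digestive enzymes farthest to the right at 66.7% of 9 tested members.

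Genes for blood clotting were gained. Of 32 genes of clotting and fibrinolysis, 19 were tested, 9 were higher in d5FS and 0 were lower, and the median log2 fold change was 2.02. Members near 0 in d0 passed the filter only through later samples. With at least 10 counts required in every d0 and d5FS sample, 5 members were called higher. Fgb encodes the beta chain of fibrinogen, the precursor of fibrin, and lies at chr3:83040141-83049863 (mm10, minus strand). No read was assigned to it in d0, with 0 and 0 counts, and d5FS had 123 and 149 counts, where its level was 8.06 and 7.96 coding TPM. Against a floor of 3 counts in each d0 library this was at least 54.7-fold higher. Fga, the alpha chain, had 0 and 0 counts in d0 against 9 and 19 in d5FS (at least 5.63-fold higher), so that it was called from a very low level. Fgg, the gamma chain, had 0.438 and 0.492 coding TPM in d0 and 3.53 and 1.12 in d5FS and was not called (log2 fold change 2.01 ± 0.70 SE, adjusted p = 0.0703, edgeR). Fibrinogen needs all 3 chains, and here their levels were unequal in d5FS, with Fgb above Fgg and Fgg above Fga in each sample.

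The stretch of 250 bases before the RefSeq start of each fibrinogen gene and of Gckr, a liver gene described further on, is shown because the fibrinogen genes are neighbours that moved by different amounts and Gckr had one of the largest gains. The sequences are from RefSeq on GRCm38.p6, the mm10 build, and run 5′ to 3′ on the strand of the gene. Capitals mark exact matches to motifs of factors known for liver genes, searched on both strands: the GATA forms AGATAA and TGATAA, the FOXA motif TGTTTAC and the HNF4 motif CAAAGTCCA. No matches overlapped.
Fga, chr3:83025903-83026152, plus strand: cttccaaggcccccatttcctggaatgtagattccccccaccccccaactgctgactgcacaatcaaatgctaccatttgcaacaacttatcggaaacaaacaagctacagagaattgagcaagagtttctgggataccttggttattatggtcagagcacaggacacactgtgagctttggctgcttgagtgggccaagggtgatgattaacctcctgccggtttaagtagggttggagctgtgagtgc
Fgb, chr3:83049864-83050113, minus strand: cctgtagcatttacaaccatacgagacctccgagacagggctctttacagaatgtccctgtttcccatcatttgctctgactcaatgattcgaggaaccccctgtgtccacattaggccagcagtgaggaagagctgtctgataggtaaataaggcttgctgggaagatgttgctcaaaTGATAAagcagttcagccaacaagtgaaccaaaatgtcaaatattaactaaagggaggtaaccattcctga
Fgg, chr3:83007474-83007723, plus strand: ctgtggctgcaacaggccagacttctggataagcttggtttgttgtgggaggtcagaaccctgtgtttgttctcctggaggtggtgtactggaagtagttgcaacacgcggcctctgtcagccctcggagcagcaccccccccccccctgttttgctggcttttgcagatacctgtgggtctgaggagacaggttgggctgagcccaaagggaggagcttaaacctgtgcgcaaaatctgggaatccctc
Gckr, chr5:31297313-31297562, plus strand: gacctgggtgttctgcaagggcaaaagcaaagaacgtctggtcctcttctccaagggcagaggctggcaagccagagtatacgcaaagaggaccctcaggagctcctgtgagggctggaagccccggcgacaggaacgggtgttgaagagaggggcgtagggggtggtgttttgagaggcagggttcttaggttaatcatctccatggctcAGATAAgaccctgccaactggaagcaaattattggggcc

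Distances are from the RefSeq start, which for Fga and Gckr lies inside the span that GENCODE gives the gene. The ends of those windows, with the match of Gckr, thus lie within that span. A GATA form was found before Fgb, at 71 bases before the start, and before Gckr, at 39 bases, and no match to any of these letters was found in the windows of Fga and Fgg. Of all 32851 promoters of the table, 9.99% hold AGATAA and 7.94% hold TGATAA, against 5.90% and 3.72% of the promoters of tested genes, 7.15% and 4.05% of genes called higher and 5.47% and 3.60% of genes called lower. The HNF4 motif was found in 0.384% of all promoters and in 0.349% of those of tested genes. It was in 0.721% of promoters of genes called higher (13 of 1803) and 0.072% of genes called lower (1 of 1389), which are few matches. The FOXA motif was found in 2.12% of promoters of tested genes, 2.11% of genes called higher and 2.16% of genes called lower. These shares are a description of the letters in the windows, and several promoters can belong to 1 gene. Hnf4a, a nuclear receptor central to liver and visceral endoderm (chr2:163506808-163572910), had 0.0219 and 0.0702 coding TPM in d0 and 14.9 and 18.7 in d5FS, with 0.0884 and 0.658 on day 3.

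Regulators of clotting were gained beside fibrinogen. Proc, the anticoagulant protein C, had 0.701 and 0.562 coding TPM in d0 and 11 and 15 in d5FS (log2 fold change 4.22 ± 0.55 SE, adjusted p = 0.00309, edgeR). Tfpi, which inhibits the tissue factor pathway, had 21.8 and 21.2 against 82.9 and 45.7 coding TPM. F10, the clotting factor X, had 0 and 0 counts in d0 and 29 and 73 in d5FS (at least 20.5-fold higher), and Serpinf2, the plasmin inhibitor, had 4 and 1 against 70 and 43. F3, the tissue factor itself, and Thbd, the thrombin receptor thrombomodulin, were called with overlapping deposited TPM of the 2 groups. The list had 3 members called higher without d5FS replicate 1 and 5 without d0 replicate 2. Plg, which encodes plasminogen, was not tested, with 0 and 0 counts in d0 and 1 and 6 in d5FS.

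Plasma carrier proteins were split. Of 26 genes 9 were tested, 4 were higher, 3 were lower and the median log2 fold change was 3.31. With at least 10 counts required in every d0 and d5FS sample, 1 was called higher and 1 lower. Ttr, the carrier of thyroid hormone and of retinol-binding protein, had 0 and 3 counts in d0 and 189 and 352 in d5FS (ratio 218, 95% counting interval 74.0 to 1060). Rbp4, the retinol-binding protein, rose from 0.876 and 1.90 to 44.1 and 76.7 coding TPM (log2 fold change 5.26 ± 0.66 SE, adjusted p = 0.00294, edgeR). Afp, the fetal albumin-like protein, was at 5.15 and 17.1 coding TPM in d5FS and at most 0.109 in d0. Hpx, the haem carrier hemopexin, had 3 and 0 counts in d0 and 48 and 38 in d5FS (ratio 34.6, 95% counting interval 11.4 to 171). Trf, the iron carrier transferrin, fell from 2.87 and 8.32 to 0.588 and 0.605 coding TPM, and Ahsg and Fetub, which encode fetuins, were lower from levels of at most 1.30 coding TPM in d0. Albumin was not gained at this depth: Alb had 1 and 0 counts in d0 and 0 and 0 in d5FS. Of the lower members, 1 was called without d0 replicate 2 and 0 without either d5FS sample.

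Lipoprotein genes were gained as well, with 8 of 20 tested genes higher and 1 lower (26 in the list, median log2 fold change 1.10). With at least 10 counts required in every d0 and d5FS sample, 4 were called higher. Apob, the structural protein of lipoproteins secreted by liver, gut and visceral endoderm, rose from 0.350 and 0.140 to 18.5 and 7.18 coding TPM (log2 fold change 5.46 ± 0.57 SE, adjusted p = 0.00174, edgeR). Apoa1, the main protein of high density lipoprotein, rose from 0.153 and 0.492 to 48.1 and 76.7 coding TPM (log2 fold change 7.33 ± 0.89 SE, adjusted p = 0.00263). Genes for loading lipid onto these particles rose too. Mttp, which transfers lipid onto Apob, rose from 2.74 and 1.05 to 10.6 and 9.68 coding TPM, and Soat2, which esterifies cholesterol for packaging, had 12 and 49 counts in d0 and 617 and 504 in d5FS. Apom rose from 0.504 and 0.843 to 9.61 and 18.7 coding TPM, Scarb1, a receptor for high density lipoprotein, rose from 16.4 and 14.2 to 38.8 and 52.7, and Apoa4 had 0 and 0 counts in d0 against 53 and 46 in d5FS (at least 19.9-fold higher). Apoa5 had 0 and 3 counts in d0 and 15 and 18 in d5FS (ratio 13.3, 95% counting interval 4.16 to 67.6). Apoa2 fell from 19.4 and 23 to 2.80 and 4.24 coding TPM, against the direction of Apoa1. Apoe was the most abundant uncalled member, with 410 and 895 coding TPM in d0 and 1545 and 1151 in d5FS (adjusted p = 0.344, edgeR). Without d5FS replicate 2, 5 members were called higher, and Apoa2 was called lower only without d0 replicate 1 among the 4 fits that left out a d0 or d5FS sample.

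Of 30 complement genes 12 were tested, 5 were higher and 2 were lower. These shares are 41.7% and 16.7%, against 12.4% and 10.4% of all tested genes. Over the alternative fits the number called higher went down to 2. The most abundant of the complement genes called higher protect cells from complement. Cd55, which speeds the decay of the convertases, rose from 4.93 and 1.83 to 382 and 112 coding TPM (log2 fold change 6.0 ± 0.64 SE, adjusted p = 0.00187, edgeR). Cd59a, which blocks the membrane attack complex, rose from 2.34 and 2.25 to 90.3 and 111 coding TPM (log2 fold change 5.27 ± 0.49 SE, adjusted p = 0.00144). The secreted components stayed at lower levels in d5FS, with Masp1 at 8.26 and 2.90, C8b at 0.692 and 1.60 and Cfb at 0.864 and 0.735 coding TPM. Masp1, C8b and Cfb passed the filter only through samples later than d0, so their tests could hardly show a loss. C1s1, the protease of the classical pathway, fell from 0.985 and 1.37 to 0.242 and 0.130, and C1qbp, a mitochondrial protein named for binding C1q, from 169 and 125 to 74.3 and 86.8 coding TPM. Complement genes called higher were 3 without d5FS replicate 1, and 1 was called lower without d0 replicate 1 and 0 in each fit without another d0 or d5FS sample.

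Few genes of glucose metabolism were called. Of 22 tested genes of glucose storage and release, 4 were higher and 2 lower, which is 18.2% and 9.09% of them against the 12.4% and 10.4% of all tested genes, and the median was 0.89. Gckr, the regulatory protein that holds glucokinase in the liver cell nucleus (chr5:31297443-31327314), had 0 and 1 count in d0 and 419 and 677 in d5FS (ratio 1320, 95% counting interval 237 to 52300). Its level on day 3 was 0.442 and 1.41 coding TPM, and on day 5 it was 20.8 and 27.3. Pygl, the liver glycogen phosphorylase, rose from 0.701 and 0.808 to 5.57 and 3.07 coding TPM. Ppp1r3b, which targets a phosphatase to glycogen, rose from 1.60 and 0.492 to 9.37 and 5.14, and G6pc3, a widely expressed glucose-6-phosphatase, from 4.71 and 3.37 to 19.6 and 19.4. The genes of glucose output in mature liver were near 0 in d5FS: G6pc had 0 and 5 counts, Pck1 had 1 and 1, and Slc2a2, the liver glucose transporter, had 1 and 3. Hk2, a hexokinase of growing cells, fell from 48.8 and 56.0 to 29.4 and 29.5 coding TPM, and Fbp2, a fructose bisphosphatase of muscle, from 0.920 and 1.12 to 0.0692 and 0.216. With the replicate number as a block 8 members were called higher. Leaving out d5FS replicate 1 left 2 members called higher, and 0 were called lower without d0 replicate 2 or either d5FS sample.

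Genes of fatty acid oxidation were rarely called, with 2 of 35 tested genes higher and 2 lower (median 0.16). These shares are 5.71% each, against 12.4% higher and 10.4% lower of all tested genes, and the counts are small. Decr1 and Cpt2, which act in mitochondrial oxidation, were higher, Decr1 at 35.5 and 27.4 coding TPM against 10.3 and 8.60 in d0. Hadhb, a subunit of the trifunctional protein, fell from 62.0 and 54.3 to 20.8 and 24.2 coding TPM, and Acsl5, an acyl-CoA synthetase, from 25.1 and 10.3 to 9.30 and 6.83. The median of this list turned negative, at -0.17, on the scale of the deposited TPM, where that of all tested genes was -0.34. Leaving out d5FS replicate 1 left 1 member called higher and 0 lower, without d5FS replicate 2, 1 and 1 were called, and without d0 replicate 1, 4 were called lower. With the replicate block 5 were called higher.

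Genes of digestion were few but among the largest gains. Of 33 genes 9 were tested, 6 were higher and 0 lower, and 24 stayed below the filter. Pga5, a pepsinogen of the stomach (chr19:10668956-10678071), had 1.51 and 1.83 coding TPM in d0, 10.1 and 27.4 on day 3, and 965 and 1419 in d5FS. This was 631-fold, a log2 fold change of 9.30 ± 0.79 (SE, adjusted p = 0.00127, edgeR). Prss1, a pancreatic trypsinogen with close paralogues that can share its reads, had 1 and 0 counts in d0 and 76 and 63 in d5FS (ratio 168, 95% counting interval 29.6 to 6670). Muc13, a transmembrane mucin of the gut, had 3 and 3 against 281 and 139 counts. Tff3, a secreted trefoil peptide, had 2 and 0 against 47 and 21 counts (ratio 41.0, 95% counting interval 10.9 to 346), and Pyy, a gut hormone, had 2 and 2 against 96 and 15. Prss1, Muc13, Tff3 and Pyy passed the filter only through samples later than d0, so their tests could hardly show a loss. The share of tested members called higher follows in part from that filter. Spink3, the older symbol of the trypsin inhibitor Spink1 and a member of this list, was among the 15 genes with the largest gain of TPM, from 39.3 and 20.8 to 2577 and 2690 coding TPM (log2 fold change 6.37 ± 0.70 SE, adjusted p = 0.00195).

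Brush border and endocytic genes were mixed, with 5 of 22 tested genes higher and 3 lower (median 0.59). These shares are 22.7% and 13.6%, against 12.4% and 10.4% of all tested genes. Vil1, which bundles actin in microvilli, rose from 1.03 and 0.632 to 9.72 and 14.8 coding TPM (log2 fold change 3.74 ± 0.53 SE, adjusted p = 0.00389, edgeR). Cubn, an uptake receptor of visceral endoderm, kidney and gut, had 25 and 5 counts in d0 and 154 and 166 in d5FS, and its adaptor Dab2 rose from 2.50 and 0.281 to 13.6 and 9.90 coding TPM. Pdzk1, a scaffold of the brush border, rose from 1.62 and 1.26 to 17.9 and 13.2, and Rab11a, which recycles endosomes, was called with overlapping deposited TPM. Folr1, a folate receptor, fell from 59.9 and 63.0 to 16.5 and 17.9 coding TPM. Eps8 and Anpep, also found in microvilli, were the other members called lower. Without either d5FS sample 3 members were called higher, and 0 were called lower without d5FS replicate 1 and 1 without d5FS replicate 2 or d0 replicate 2. The fit with the replicate block called 8 higher.

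Lysosomal genes were gained broadly. Of 47 tested genes 19 were higher and 1 was lower, and 38 had a positive log2 fold change (median 0.98). Ctsh, a cathepsin with aminopeptidase activity, rose from 2.25 and 0.667 to 221 and 149 coding TPM (log2 fold change 6.86 ± 0.80 SE, adjusted p = 0.00247, edgeR). Ctsl, an endopeptidase, rose from 132 and 110 to 676 and 480 coding TPM (log2 fold change 2.05 ± 0.29 SE, adjusted p = 0.00393). Other hydrolases rose too. Naglu, which degrades heparan sulphate, had a log2 fold change of 2.78 ± 0.43 (SE), Hexa, which degrades gangliosides, of 1.90 ± 0.30, and Lgmn, the asparaginyl endopeptidase, of 2.75 ± 0.48. The membrane protein Lamp2 rose from 12.2 and 8.95 to 75.5 and 43.5 coding TPM, and the cholesterol exporters Npc1 and Npc2 rose too, Npc2 from 43.8 and 44.3 to 248 and 195. Ctsd was the most abundant member that was not called (log2 fold change 1.01 ± 0.39 SE, adjusted p = 0.0934, edgeR). Manba, a mannosidase, was the member called lower, at 12.7 and 54.5 coding TPM in d0 and 12.1 and 6.62 in d5FS, and it was not called with the replicate block. In the 4 fits that left out a d0 or d5FS sample, between 13 and 17 members were called higher, 0 were called lower without d0 replicate 2 or either d5FS sample, and 2 without d0 replicate 1.

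Proteoglycan genes were called higher in 8 of 36 tested cases and lower in 2, with a median of 0.45 that was -0.01 on the scale of the deposited TPM. These shares are 22.2% and 5.56%, against 12.4% and 10.4% of all tested genes. Srgn, the core protein of serglycin, a proteoglycan of secretory granules (chr10:62493833-62527451), had 2 and 0 counts in d0, 0.907 and 1.63 coding TPM on day 3, and 141 and 82.6 coding TPM in d5FS (ratio 1200, 95% counting interval 332 to 9920). Of the 6 glypicans, heparan sulphate proteoglycans anchored to the membrane, 4 were higher and Gpc5 and Gpc6 were not called, with log2 fold changes of -1.81 and 1.15. Gpc3 rose from 17.2 and 12.5 to 385 and 206 coding TPM, Gpc4 from 25.7 and 5.30 to 282 and 185, and Gpc2 and Gpc1 were called higher as well, with log2 fold changes of 2.51 ± 0.37 and 1.39 ± 0.30 (SE). Chst11, a chondroitin sulphotransferase, rose from 1.38 and 0.843 to 11.5 and 14.6. Cd44, called with overlapping deposited TPM of the 2 groups, and Spock1 completed the group. Ncan and Acan, core proteins of brain and cartilage, were lower in d5FS from at most 2.80 coding TPM in d0. The number called lower was 0 without d5FS replicate 1, 1 without d5FS replicate 2, 3 without d0 replicate 1, 5 without d0 replicate 2 and 6 with the replicate block.

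The cytoskeleton of smooth muscle and simple epithelia held the largest single gains of TPM. Of 45 tested genes of the contractile and keratin list 20 were higher and 0 lower, and 42 had a positive log2 fold change (median 1.42). The keratins of simple epithelia, Krt18 and Krt8, led the gains of TPM: Krt18 rose from 245 and 121 to 4603 and 3562 coding TPM (log2 fold change 4.34 ± 0.46 SE, adjusted p = 0.00187, edgeR) and Krt8 from 365 and 134 to 3597 and 3317 (3.68 ± 0.51 SE, adjusted p = 0.00361). Krt19 rose from 57.5 and 16.9 to 619 and 547. The muscle genes were uneven between the d5FS samples. Myl7, an atrial myosin light chain, had 6.79 and 6.60 coding TPM in d0 and 1489 and 442 in d5FS, Acta2, smooth muscle actin, had 7.55 and 5.93 against 392 and 162, and Acta1, skeletal actin, had 6.94 and 2.07 against 125 and 15.1. In each of these 3 genes d5FS replicate 1 was the higher one. Tpm1 and Myl6, also among the 15 largest gains of TPM, had log2 fold changes of 1.94 ± 0.57 and 1.28 ± 0.34 (SE). Of the contractile and keratin list, 8 members were called higher without d5FS replicate 1, without d0 replicate 2, 11, and without d5FS replicate 2, 12. Beside this gain, Tnnt2 and Tbx6 were the other genes called higher of 13 tested mesoderm and heart markers, at no more than 3.01 coding TPM, Mesp2 was lower (log2 fold change -3.05), and with the replicate number as a block 5 were higher. Of these markers 1 was called higher without d0 replicate 2 or either d5FS sample, and 0 were called lower in each fit that left out a d0 or d5FS sample.

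The other genes with the largest gain of TPM do not share a list. They were Igfbp2, a binding protein of insulin-like growth factors, Grb10 and H19, both imprinted, the lactate transporter Slc16a1, Emb, an accessory protein of such transporters, Cd24a, S100a10 and Wbp5. H19, a noncoding RNA, rose from 25.4 and 26.6 to 978 and 444 coding TPM (log2 fold change 4.51 ± 0.62 SE, adjusted p = 0.00363, edgeR), and Grb10, an adaptor that dampens insulin signalling, from 39.6 and 27 to 733 and 742 (4.31 ± 0.43, adjusted p = 0.00173). Slc16a1 rose from 69.5 and 84.1 to 1113 and 617 coding TPM. Among genes of high fold rather than high level, Kcnj5, a potassium channel gated by G proteins, had 2 and 6 counts in d0 and 1253 and 1506 in d5FS. Tph1, which makes serotonin outside the brain, had 8 and 3 against 1565 and 1319, and Rgs8, a regulator of G protein signalling, had 12 and 7 against 1988 and 2560. Capn6, a calpain-like protein of the cytoskeleton, was at 242 and 57.4 coding TPM in d5FS and at 28.4 and 49.8 on day 3.

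**Figure D2:**
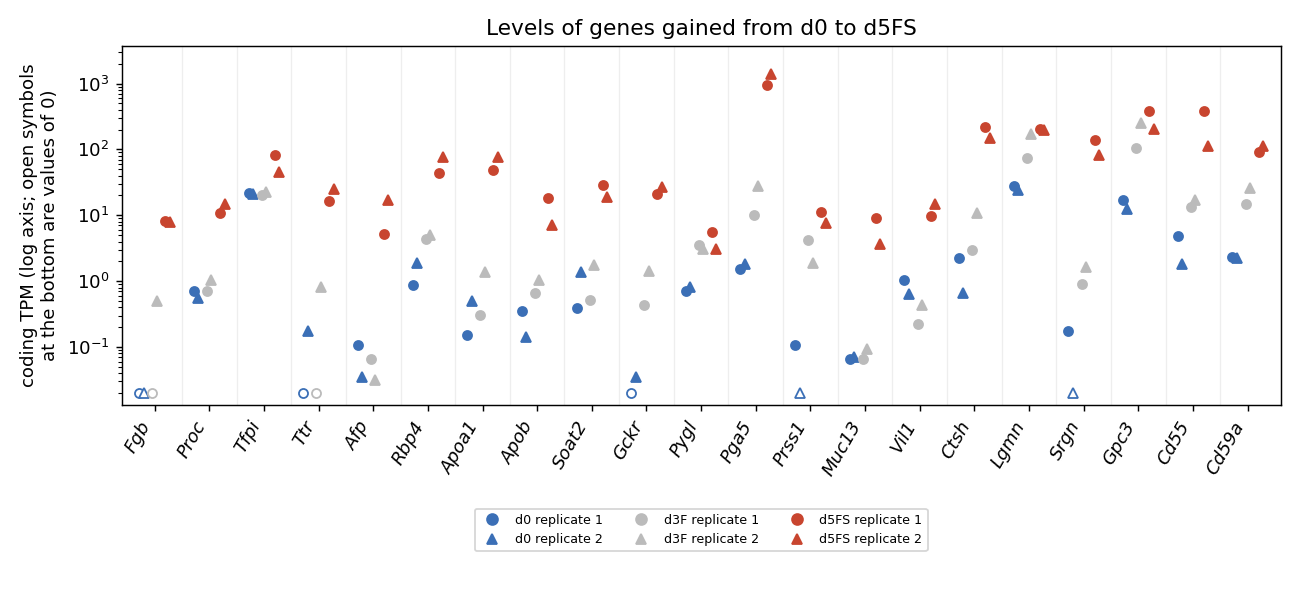
Levels in coding TPM (log axis) of 21 gained genes in the 2 d0 samples (blue), the 2 d3F samples (grey) and the 2 d5FS samples (red), with circles for replicate 1 and triangles for replicate 2. Open symbols at the bottom are values of 0. In d5FS Pga5 reached 1419 coding TPM, and Fgb was at 0 in both d0 samples and at 8.06 and 7.96 in d5FS.

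Ribosome production had the largest share of lower genes of the 28 function and family lists. Of 63 genes all were tested, 40 were lower in d5FS and 0 were higher, which is 63.5% against the 10.4% of all tested genes, and 61 had a negative log2 fold change (median -1.29). The fold changes were moderate and the levels high. Bop1, needed for large subunit assembly, fell from 104 and 79.3 to 17.6 and 25.6 coding TPM (log2 fold change -2.23 ± 0.35 SE, adjusted p = 0.00493, edgeR). Ddx21, a nucleolar helicase, fell from 155 and 92.7 to 31.1 and 30.9 coding TPM. Dkc1, the pseudouridine synthase of ribosomal RNA, fell from 111 and 87.1 to 26.2 and 26.1, Heatr1 from 84.4 and 68.6 to 23.8 and 20.2, and Tcof1, which acts in ribosomal RNA transcription, from 37.0 and 36.7 to 8.71 and 10.9. Polr1b, a subunit of RNA polymerase I, fell from 62.1 and 63.2 to 15.3 and 22.3. Ncl, nucleolin, fell with a log2 fold change of -1.89 ± 0.41 (SE). Npm1, nucleophosmin, was the most abundant member and was not called, at 3502 and 2322 coding TPM in d0 and 2722 and 1477 in d5FS. Ribosome genes called lower were 10 without d5FS replicate 1, 23 without d0 replicate 2 and 26 without d5FS replicate 2.

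Genes of DNA replication and recombination repair were lower as well. All 60 genes were tested and all 60 had a negative log2 fold change, with a median of -0.98 that lies close to the threshold of -1, and 23 were called lower and 0 higher. The proteins of the replication fork were among them. Rpa1, which coats single strands, fell from 118 and 150 to 34.9 and 41.9 coding TPM (log2 fold change -2.02 ± 0.36 SE, adjusted p = 0.00834, edgeR). Mcm3, a subunit of the replicative helicase, fell from 173 and 175 to 52.4 and 64.7 coding TPM, Mcm5 from 240 and 259 to 62.7 and 110, and Pcna, the sliding clamp, from 520 and 504 to 257 and 263. Msh6, a mismatch repair protein, fell from 189 and 273 to 68.2 and 69.4, and Rrm2, a subunit of ribonucleotide reductase, from 147 and 158 to 31.2 and 60.1. Mcm7 was the most abundant member that was not called, at 186 and 229 against 101 and 176 coding TPM (adjusted p = 0.228, edgeR). The calls depended on d5FS replicate 1: without it 0 members were called, at a median log2 fold change of this list that was -0.87 between the replicate 2 samples of d0 and d5FS and -1.03 between those of replicate 1. Without d0 replicate 2, 9 members were called lower.

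Genes of folate, glycine and threonine metabolism fell too, with 18 of 38 tested genes lower, 2 higher and a median of -1.02. Tdh, threonine dehydrogenase, on which mouse ESCs depend for glycine and one-carbon units, fell from 101 and 283 to 7.02 and 8.09 coding TPM and was already at 13.3 and 7.33 on day 3 (log2 fold change -4.95 ± 0.66 SE, adjusted p = 0.00327, edgeR). Shmt1, serine hydroxymethyltransferase, fell from 90.9 and 118 to 26.6 and 26.3 coding TPM, and Mthfd1, which interconverts folates, from 208 and 151 to 55.7 and 50.5. The methyl cycle moved in the same direction. Mat2a, which makes S-adenosylmethionine, fell from 252 and 146 to 60.6 and 40.0, Ahcy, which clears its product, from 382 and 419 to 106 and 150, and Cbs, the first step from homocysteine to cysteine, from 12.7 and 11.1 to 1.83 and 3.50. Gnmt and Amt, both of glycine use, were lower. Aldh1l1, which oxidises formyl-folate, went the other way, from 3.26 and 2.0 to 15 and 20.3 coding TPM (log2 fold change 2.61 ± 0.41 SE, adjusted p = 0.00528). Psat1 of serine synthesis was not called (adjusted p = 0.160, edgeR). Members called lower were 6 without d5FS replicate 1, 9 without d0 replicate 2 and 10 without d5FS replicate 2, and in each of the 4 fits that left out a d0 or d5FS sample 1 was called higher.

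Detoxification and redox enzymes were lost on balance, with 12 of 39 tested genes lower and 4 higher (median -0.73). Nqo1, a quinone reductase, fell from 34.6 and 18.0 to 1.87 and 1.04 coding TPM (log2 fold change -4.36 ± 0.47 SE, adjusted p = 0.00187, edgeR). Gsta4, a glutathione transferase for lipid aldehydes with paralogues of similar sequence, fell from 454 and 635 to 39.3 and 48.6 coding TPM (log2 fold change -3.84 ± 0.49 SE, adjusted p = 0.00302). Gclm, a subunit of the enzyme that starts glutathione synthesis, fell from 36.2 and 18.4 to 6.98 and 6.40 coding TPM, and Hmox1, haem oxygenase, from 135 and 46.8 to 21.2 and 33.7. Nqo1, Gclm and Hmox1 are known targets of the factor Nrf2. Cyp26a1, which degrades retinoic acid, was the largest gain of the list, from 8.54 and 5.16 to 451 and 246 coding TPM, with 129 and 152 on day 3 (log2 fold change 5.48 ± 0.40 SE, adjusted p = 0.000916). Cyp51, of sterol synthesis, and Gstp1 and Mgst1, further glutathione transferases, were higher with log2 fold changes between 1.35 and 1.61. Gpx4 was not called, at 561 and 1602 coding TPM in d0 and 493 and 626 in d5FS. Without either d5FS sample 3 members were called lower and 2 higher, and without d0 replicate 2, 9 were lower and 2 higher.

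Few genes of iron handling were called, with 6 of 38 tested genes lower and 2 higher (median -0.27). These shares are 15.8% and 5.26%, against 10.4% lower and 12.4% higher of all tested genes. Tfrc, the transferrin receptor, fell from 149 and 98.7 to 27.7 and 7.52 coding TPM (log2 fold change -3.06 ± 0.56 SE, adjusted p = 0.00891, edgeR), and its ligand Trf and the reductase Steap3 fell too. Slc39a14, a metal importer of the cell surface, fell from 30.6 and 12.3 to 6.12 and 6.62 coding TPM, while its relative Slc39a8 rose from 5.58 and 0.527 to 154 and 94.0 (log2 fold change 5.26 ± 0.84 SE, adjusted p = 0.00540). Ftl1, the ferritin light chain, was the most abundant uncalled member, at 3780 and 2722 against 3438 and 3148. Alas2 of haem synthesis had 5 and 0 counts in d0 and 38 and 59 in d5FS, and Hfe2, hemojuvelin, was lower. Without d5FS replicate 1, 1 member was called lower and 1 higher, and without d5FS replicate 2, 3 and 1. With the replicate block 11 were called lower.

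**Figure D3:**
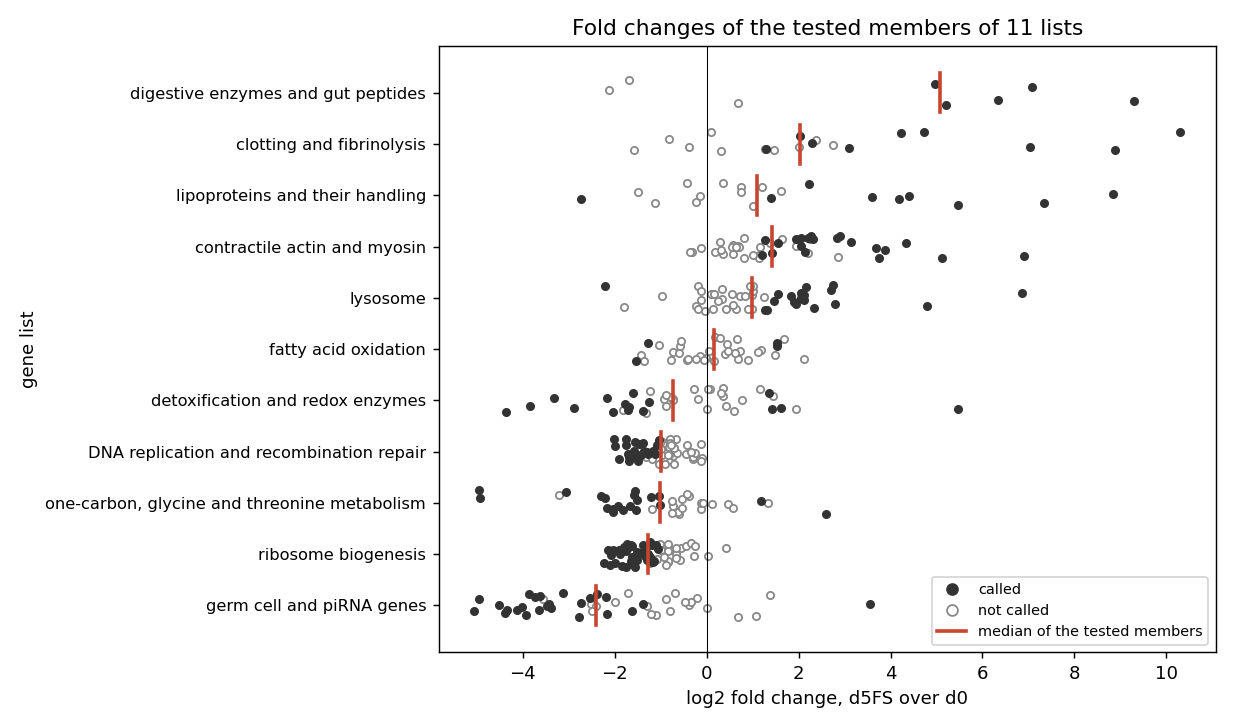
Log2 fold change from d0 to d5FS of each tested member of 11 gene lists, with filled points for called genes, open points for genes not called and a red bar at the median. The digestive list has its median at 5.20 and the germ cell list at -2.45, and all 60 points of the replication list lie below 0.

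Germ cell genes were lost. Of 59 genes 46 were tested, 25 were lower, 1 was higher and the median was -2.45. The losses covered several steps of germ cell biology. Dppa3, the maternal factor Stella, fell from 117 and 209 to 9.75 and 12.2 coding TPM (log2 fold change -4.12 ± 0.51 SE, adjusted p = 0.00270, edgeR). Ddx4, the Vasa helicase, fell from 10.9 and 4.6 to 0.519 and 0.259 coding TPM, and Mael, Tdrd12, Piwil2 and Mov10l1 of the piRNA pathway, which silences transposons, fell with it, Mael from 10.4 and 7.87 to 0.657 and 0.605. Meiotic genes were lower as well. Syce1 and Sycp3 of the synaptonemal complex fell from 5.50 and 6.78 to 0.346 and 0.130 and from 7.84 and 7.65 to 1.18 and 0.865 coding TPM. Tex19.1, which acts against retrotransposons, fell from 33.0 and 101 to 2.01 and 2.85 (log2 fold change -5.06 ± 0.72 SE, adjusted p = 0.00398). Most of the loss was present on day 3, when Tex19.1 was at 3.63 and 2.07, Dppa3 at 9.24 and 7.17 and Syce1 at 0.287 and 0.188 coding TPM. Tdrd7, a tudor protein also used outside the germ line, was the member that rose, from 1.49 and 0.737 to 15.9 and 13.1 (log2 fold change 3.56 ± 0.44 SE, adjusted p = 0.00268). Without d5FS replicate 2, 9 members were called lower, without d5FS replicate 1, 11, and without d0 replicate 2, 15.

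Genes of the 2-cell embryo were lower in 6 of 14 tested cases and higher in 0. Their level came mainly from d0 replicate 2. Zscan4c had 29 counts in d0 replicate 1 and 773 in d0 replicate 2, and 10 and 13 in d5FS. Zscan4f had 45 and 881 counts in d0 against 12 and 22 in d5FS. The Zscan4 genes are near-identical copies among which reads are divided by estimate, so single members are uncertain. Arg2, an arginase, had 27 and 37 counts in d0 and 1 and 1 in d5FS (ratio 26.7, 95% counting interval 7.16 to 227). Without d0 replicate 2, 3 members were called, without either d5FS sample, 0, and without d0 replicate 1, where more members passed the filter, 17. Pluripotency genes also summed to a higher level in d0 replicate 2, with 13880 coding TPM over 20 genes against 4433 in replicate 1, of which Dppa5a took 10851 and 1986.

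Neuronal genes were called in both directions, more often lower. Of 51 tested genes of synapses and the neuronal cytoskeleton, 16 were lower and 7 higher (median -0.83). Tubb3, neuronal tubulin, fell from 63.7 and 71.6 to 1.35 and 2.90 coding TPM (log2 fold change -5.15 ± 0.65 SE, adjusted p = 0.00294, edgeR). The neurofilament genes were the second group. Nefl fell from 62.0 and 26.4 to 2.70 and 1.64 coding TPM, after 135 and 27.2 on day 3, and Nefh and Ina, at most 12.4 in d0, were near 0 in d5FS. Crmp1, an adaptor of axon guidance, fell from 18.1 and 13.2 to 1.35 and 1.47. Its relative Dpysl3 rose from 6.70 and 7.83 to 50.1 and 42.7 coding TPM (log2 fold change 2.45 ± 0.33 SE, adjusted p = 0.00335), and Dlg4, Nlgn2, Gabbr1, Cplx2, Syn2 and Grin1 were higher too. Markers of neural progenitors moved beside these genes. Olig2 fell from 12.3 and 10.6 to 0.726 and 0.303, and Neurod1 was lower, while Nes was not called. The summed level of the 14 neural markers was 69.0 and 17.1 coding TPM in d0 and 31.0 and 12.7 in d5FS, and its part in the result was not tested. Of the neuronal list, 6 members were called lower and 2 higher without d5FS replicate 1, and without d5FS replicate 2, 9 and 4.

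Besides Dppa5a, the largest losses of TPM were in histones and in proteins of fast growing cells. Of the 15 genes with the largest loss, 9 were replication-dependent histone genes, for example Hist1h3g, at 2500 and 3886 coding TPM in d0 and 427 and 848 in d5FS, and Hist1h2bh, at 1499 and 1277 against 121 and 299. Their transcripts lack a poly(A) tail and come from many similar copies, so that their values depend on library kind and on how reads are divided. The variant H2afz fell from 2451 and 3206 to 1083 and 1284 coding TPM. Hspa8 and Hsp90aa1, chaperones, fell from 4222 and 4127 to 2472 and 1893 and from 2170 and 1691 to 905 and 399. Pkm, pyruvate kinase, fell from 2609 and 2653 to 647 and 1284, and Ptma, prothymosin, from 3872 and 4351 to 1820 and 1816. Among losses of high fold, Pnp2, a purine phosphorylase with a near copy, fell from 30.2 and 40.4 to 0.104 and 0.692 coding TPM, Calcoco2, an autophagy receptor, from 25 and 61.1 to 1.31 and 0.605, and Tcf15, a factor of epiblast priming, from 15.3 and 32.7 to 0.622 and 0.692. Mylpf, a muscle light chain, had 64.8 and 665 coding TPM in d0, so that its loss was set mainly by d0 replicate 2.

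**Figure D4:**
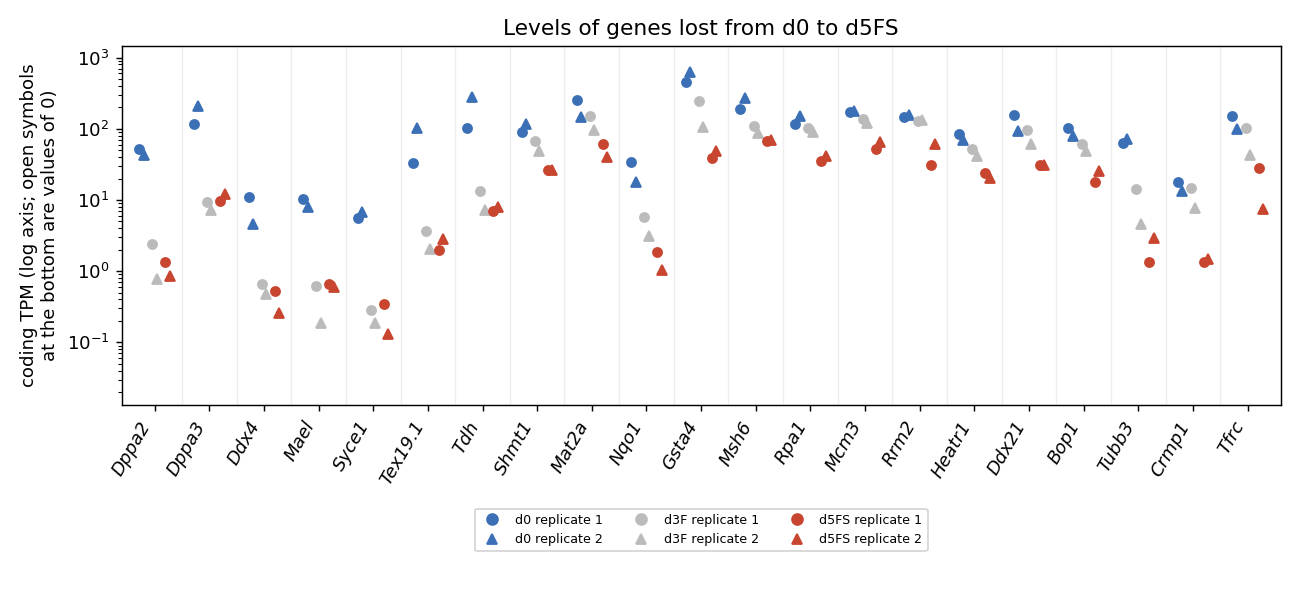
Levels in coding TPM (log axis) of 21 lost genes in the 2 d0 samples (blue), the 2 d3F samples (grey) and the 2 d5FS samples (red), with circles for replicate 1 and triangles for replicate 2. For each gene both d0 samples lie above both d5FS samples, from Dppa2 (51.6 and 42.7 against 1.35 and 0.865) to Tfrc (149 and 98.7 against 27.7 and 7.52).

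Interferon response and antigen presentation genes were higher in 10 of 43 tested cases and lower in 3 (median 0.47). These shares are 23.3% and 6.98%, against 12.4% and 10.4% of all tested genes. The summed level of the list was 1187 and 880 coding TPM in d0 and 1428 and 776 in d5FS, so it was not higher in both replicates. Usp18, which removes ISG15 from proteins and was named for its fold, outside the list, had 4 and 4 counts in d0 and 1087 and 314 in d5FS. Bst2, tetherin, rose from 74.9 and 113 to 431 and 240 coding TPM, and the class I molecule H2-T23 from 0.460 and 0.492 to 7.92 and 7.44. Genes that interferon induces were uneven in d5FS, where Ifit3 had 137 and 9 counts against 0 and 1 in d0, and Ifit1 had 62 and 14 against 2 and 1, the higher value in each case in replicate 1. Ifitm3 and Ifitm1, membrane proteins abundant in ESCs, fell, Ifitm3 from 253 and 145 to 30.7 and 33.4 coding TPM (log2 fold change -2.75 ± 0.34 SE, adjusted p = 0.00276, edgeR). Without d5FS replicate 1, 1 member was called higher, and without d0 replicate 2, 6.

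Markers of other cell types are set beside the 12.4% higher and 10.4% lower of all tested genes. Of the tested visceral endoderm genes 75.0% were higher and 5.0% lower, of the parietal endoderm genes 61.1% and 0%. For fibroblast feeder genes the shares were 22.2% and 0%, for blood and endothelium 30.0% and 40.0%, and for trophoblast 33.3% each. The last 2 lists rest on 10 and 9 tested genes. Of 20 tested visceral endoderm genes 15 were higher and 1 lower, and their summed level was 181 and 203 coding TPM in d0 and 3245 and 3396 in d5FS, where Spink3 took 2577 and 2690. Of these genes 0 were called lower without either d5FS sample, and 2 without d0 replicate 1. The list shares Spink3, Ttr, Afp, Rbp4, Apoa1, Apob, Apoa4, Soat2, Cubn, Dab2, Lgmn, Slc39a8 and Hnf4a with gains above. It shares Trf with the losses. These gains thus do not separate definitive from visceral endoderm. Ttr, Afp, Apoa4, Apoa1 and Hnf4a had at most 7 counts in each d0 sample. They passed the filter only through later samples, so their tests could hardly show a loss. Over the alternative fits the number of visceral endoderm genes called higher went down to 8. Rhox5, an extraembryonic marker, was not called, at 61.6 and 135 against 57.5 and 76.6 coding TPM. Parietal endoderm genes were higher in 11 of 18 and lower in 0, with Col4a1 and Col4a2, Serpinh1 and Pdgfra among them, and summed to 380 and 284 in d0 and 1741 and 1174 in d5FS. Without d0 replicate 2, as without d5FS replicate 1, 6 of these were called higher. Fibroblast feeder genes were higher in 4 of 18 tested cases, Col1a2, Postn, Col3a1 and Col1a1 (7 with the replicate block, Tagln among them), of which Col1a2 went from 0.219 and 0.702 to 35.2 and 40.5 coding TPM. The summed level of the feeder list was 373 and 61.8 in d0 and 1516 and 627 in d5FS, mostly from Tagln (332 and 47.4, and 1383 and 555), while Fap had 0 counts in all 4 samples and Lum had 1 count in d0 replicate 1. Of 21 blood and endothelium genes 10 were tested, 3 were higher (Gata1, Runx1 and Flt1) and 4 lower (Tek, Pecam1, Etv2 and Cd34), of which 0 were called without d5FS replicate 1 and 2 without d5FS replicate 2 or d0 replicate 1. Of 9 tested trophoblast genes 3 were higher (Eomes, Gata3 and Krt7) and 3 lower (Cdx2, Tfap2c and Gcm1), and without d5FS replicate 1 the number called lower was 1, against 2 without d0 replicate 2 or d5FS replicate 2. The part of these cell types in the results was not tested, and in bulk samples fewer cells of a type cannot be told apart from less RNA per cell.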

How the data were processed

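RNA was measured in 6 samples, 2 each of d0, d3F and d5FS, grouped by their labels. The authors made TruSeq V2 libraries after Ribo-Zero Gold depletion, sequenced them on a HiSeq 2500, aligned the paired reads to mm10 with STAR and quantified genes with RSEM (versions and annotation release are not given in the sources used here). The deposited tables hold expected counts, TPM and FPKM per gene, and FPKM was not used. The study's methods describe independent biological replicates. They give depletion of ribosomal RNA for these libraries, whereas its library list names an mRNA and a total RNA library per population, and the sources used here do not settle this.

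The deposited expected counts were rounded and tested in R 4.3.3 with edgeR 4.0.16 (filterByExpr, TMM, glmQLFit and glmQLFTest, 1 mean per population over all 6 samples, 3 residual degrees of freedom, limma 3.58.1). Calls needed an adjusted p (Benjamini-Hochberg, over all 14539 tested genes of 24054) below 0.05 together with a log2 fold change beyond 1 in either direction. The deposited TPM were rescaled to the same total over the 20619 genes with a protein-coding RefSeq transcript, because short noncoding RNAs take much of the deposited TPM. The test was checked on simulated data.

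The members and lists were chosen with earlier results of these data known, so no test was run over a list. Named genes were the 15 called genes with the largest gain and the 15 with the largest loss of mean TPM, the 12 with the largest fold in each direction at a mean of at least 5 TPM, both without overlap of TPM between d0 and d5FS, up to 6 called members per list and direction at a mean of at least 1 TPM, the most abundant uncalled member of each list, and Fgb, Pga5, Gckr, Srgn, Hnf4a, Foxa2 and Sox17. Other genes named, among them Fga, Fgg, F10, Serpinf2, Alb, Plg, G6pc, Pck1, Slc2a2, Polr1b, Ncl, Mcm5, Pcna, Ctsl, Hexa, Npc2, Mthfd1, Ahcy, Tnnt2, Tbx6, Mesp2, Gpc5, Gpc6, Tek, Pecam1, Etv2, Cd34, Tfap2c, Fap and Lum, were chosen after their values were seen. Folds against 0 counts used a floor of 3 counts per library, and ratios on 1 to 3 counts have exact 95% intervals, both for counting error only. Promoters are from RefSeq on GRCm38.p6, and gene positions from the GENCODE annotation of the same build. Alternatives were DESeq2 1.42.0 (size factors, and its Wald test against 0 and against 1), other filters, a replicate block, d0 and d5FS alone, protein-coding genes alone and leaving out each sample. The deposited TPM scale was added after seeing the data. List symbols absent from the tables were matched through RefSeq synonyms, also after seeing the data (Spink1 as Spink3, C5 as Hc, Dub1 as Usp17la, Flvcr1 as Mfsd7b and Meioc as Gm1564). Differences between replicates 2 and 1 correlated across genes with r = 0.314 between d0 and d3F and 0.324 between d0 and d5FS. Between d3F and d5FS r was 0.278. Equal numbers may thus mark paired samples, although the labels do not say what they share. The main fit did not use the replicate number, so its standard errors and p-values treat the samples as unpaired. Only the alternative with a replicate block takes such a pairing into account. Some results are not reported here.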

Additional observations from a re-analysis of the deposited data

How the results depend on the processing

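The number of called genes was 3313, with 1800 higher and 1513 lower. Requiring more than the threshold in the test itself, by DESeq2's Wald test against a log2 fold change of 1, left 996 genes, 614 higher and 382 lower. Leaving out 1 sample gave between 1047 and 3037 called genes, between 724 and 1604 higher and between 323 and 1433 lower. The other alternatives gave between 2477 genes (at least 10 counts in every d0 and d5FS sample) and 4495 (no filter on low counts). Of 229 called genes named in the text, 111 lost their call in at least 1 fit that left out a sample, 91 under DESeq2's Wald test against 1 and 14 with d0 and d5FS alone, and 0 reversed. Of the uncalled genes named, 3 changed sign. Over the fits that left out a sample, the log2 fold change of Gpx4 ranged from -1.90 to 0.06, of Rhox5 from -1.39 to 0.20 and of Nes from -1.35 to 2.11. The cause was not tested.

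A fit with the replicate number as a block called 4296 genes, 2318 higher and 1978 lower, and there the log2 fold change of Nes was 0.01. Among the called genes named in the text, Manba lost its call there, and Tagln, with an adjusted p = 0.0542 in edgeR without the block, was called. List counts that the block moved by over 1.5 times are given beside the lists, and it changed no other call of a named gene. The limit of 2 samples a group bears most on single genes.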

Other observations

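Potassium channels and solute carriers, families outside these functions, had called genes in both directions. Of 58 tested potassium channel genes 10 were higher in d5FS and 4 lower. These shares are 17.2% and 6.9%, against 12.4% and 10.4% of all tested genes. Kcnmb4, a regulatory subunit of calcium-activated channels, rose from 2.12 and 1.09 to 46.0 and 28.7 coding TPM (log2 fold change 4.36 ± 0.63 SE, adjusted p = 0.00426, edgeR), and Kcnk16, a background channel, had 0 and 1 count in d0 and 36 and 27 in d5FS (ratio 76.0, 95% counting interval 13.2 to 3050). Kcnj3, a partner of Kcnj5 in other tissues, fell from 8.14 and 1.51 to 0.968 and 0.130 coding TPM. Without d5FS replicate 1, 6 channel genes were called higher and 0 lower, and without d5FS replicate 2, 5 and 0. The number called lower was 2 without d0 replicate 2 and 7 with the replicate block. Of 271 solute carriers 42 were higher and 31 lower, with a median of 0.16 that was -0.24 on the deposited TPM scale. These shares, 15.5% and 11.4%, were close to those of all tested genes. Slc39a2, a zinc transporter, rose from 0.482 and 0.562 to 58.5 and 30.7 coding TPM, and Slc34a2, a phosphate transporter of lung and gut, had 0 and 4 counts in d0 and 470 and 383 in d5FS. Slc28a1, a nucleoside transporter, fell from 4.51 and 4.28 to 0.277 and 0.173 coding TPM. Without d5FS replicate 1, 15 carriers were called higher and 5 lower, without d5FS replicate 2, 20 and 6, and without d0 replicate 2, 23 and 16.

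Tetraspanins, membrane proteins that organise receptors, were higher in 5 of 16 tested cases and lower in 0, led by Tspan7 at 27.6 and 13.5 coding TPM in d0 and 199 and 267 in d5FS, and without either d5FS sample 2 were called, against 3 without d0 replicate 2. Zinc finger genes stayed below the background, with 18 of 341 higher (5.28%) and 21 lower (6.16%), against 12.4% and 10.4% of all tested genes. These counts were 34 and 30 with the replicate block, 27 and 13 without d0 replicate 1, 10 and 17 without d0 replicate 2, 8 and 5 without d5FS replicate 1 and 9 and 7 without d5FS replicate 2. Zfp600, at 9.59 and 7.58 against 0.692 and 0.432 coding TPM, was among the lower ones, but such genes have similar copies and single values are uncertain. Of 28 tested genes of LIF signalling, the pathway that maintains mouse ESCs, 6 were lower and 2 higher. The d0 medium held LIF and none is listed for the endoderm medium, so the change of medium cannot be told apart from differentiation. Gbx2, a homeobox target, fell from 6.09 and 12.5 to 0.0346 and 0.173 coding TPM (log2 fold change -6.43 ± 0.83 SE, adjusted p = 0.00302, edgeR), while Stat5b rose from 2.85 and 2.0 to 7.33 and 10.7. Without d5FS replicate 1 or d0 replicate 2, 2 genes of this pathway were called lower, and without d5FS replicate 2, 1, and in each of these 3 fits 1 was called higher.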
